A study of Ovis aries and Capra hircus and Bos taurus with 26 samples.

Results

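Chromosome 6 of cattle, sheep and goats carries the albumin gene family. Its members here were all intervals of H3K27ac and H3K4me3 that lay on the assembled chromosome 6 of each species, NC_037333.1 in cattle (build ARS-UCD1.2), NC_040257.1 in sheep (Oar_rambouillet_v1.0) and NC_030813.1 in goats (ARS1). There were 18119 such peaks among 616400 in the 17 libraries, or 2.94%. The peaks come from ChIP-seq (immunoprecipitation of chromatin, then sequencing) of frozen liver from healthy adults. The animals were 3 Holstein cattle of 3 to 4 years, 3 Texel sheep of 2 to 3 years and 3 Yunnan black goats of 2 to 3 years. There were 8 libraries of H3K27ac, 2 of them from cattle (animals B and C) and 3 each from sheep and goats (animals A, B and C). H3K4me3 was profiled in all 9 animals. No animal was treated, so the comparisons were between marks, between species and between this chromosome and the others. The 9 input samples have no peak list here and entered no comparison.

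Acetylation of lysine 27 on histone H3 (H3K27ac) marks active promoters and enhancers, while trimethylation of lysine 4 (H3K4me3) marks promoters. A region with H3K27ac and without H3K4me3 is therefore read as an enhancer, and enhancers of highly transcribed genes in a cell type often lie in groups. Hepatocytes secrete albumin (ALB), the main carrier protein of blood plasma. Its relatives are alpha-fetoprotein (AFP), afamin (AFM) and the vitamin D binding protein (GC). The caseins, which are milk proteins of the mammary gland, lie on the same chromosome.

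Genes were not annotated on the 3 builds here, so no peak below is given to a gene. The sheep annotation of another assembly, ARS-UI_Ramb_v3.0, served for names and neighbours only. It placed all 4 albumin family genes on chromosome 6, with ALB, AFP and AFM directly next to each other and GC nearby on the ALB side. All 4 casein genes (CSN1S1, CSN2, CSN1S2 and CSN3) were there too, and 6 of 10 listed liver genes were found there by symbol, among them MTTP, which loads fat onto lipoproteins, and CFI, a complement regulator. Some genes of this annotation carry a LOC number in place of a symbol, so the count covers symbols only. All 6 genes listed for other cell types were present, with the receptor genes PDGFRA, KIT and KDR close together in that order. Whether the liver libraries carried marks of other cell types at these genes was not tested.

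The first comparison asked how large a share of each mark fell on this chromosome. In cattle, H3K27ac had 1221 peaks on chromosome 6 in animal B and 1327 in animal C. In sheep, animals A, B and C had 1327, 1246 and 1381, and in goats 1287, 1567 and 1410. Goat B had the most H3K27ac peaks on this chromosome of all 8 libraries. For H3K4me3, cattle A, B and C had 796, 706 and 752 peaks, sheep had 851, 973 and 939, and goats had 696, 808 and 832. Every H3K27ac library thus had more peaks here than any H3K4me3 library. Over whole libraries the marks also differed, since H3K27ac libraries held 37189 to 50842 peaks and those of H3K4me3 24809 to 38458, so shares were compared next. The lists give no reads, so the depth behind these counts was not measured here.

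As a share of all peaks on assembled chromosomes, chromosome 6 of cattle held 3.07% ± 0.04 of H3K27ac peaks (SD, n = 2). The share was 3.39% ± 0.01 for sheep and 3.21% ± 0.02 for goats (SD, n = 3 each). For H3K4me3 it was 2.85% ± 0.03 among cattle, 3.14% ± 0.08 among sheep and 2.997% ± 0.032 among goats (SD, n = 3 each). Within each species, the lowest H3K27ac library lay above the highest H3K4me3 library. The share of H3K27ac was higher than that of H3K4me3 by 0.11 on the log2 scale, averaged over species (exact permutation of marks within species, p = 0.00025, the smallest this design allows, and 0.00325 after Benjamini-Hochberg adjustment over 13 tests). The ratio of the shares was 1.08 for cattle and sheep and 1.07 for goats. The size of this difference moved with the peaks counted. It was 0.036 among the 20000 strongest peaks of each library (exact permutation, p = 0.0225), 0.051 with −log10 q of at least 5 (exact permutation, p = 0.002) and 0.064 with every summit counted (exact permutation, p = 0.00025). With unplaced scaffolds in the whole it was 0.24 (exact permutation, p = 0.00025).

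**Figure D1:**
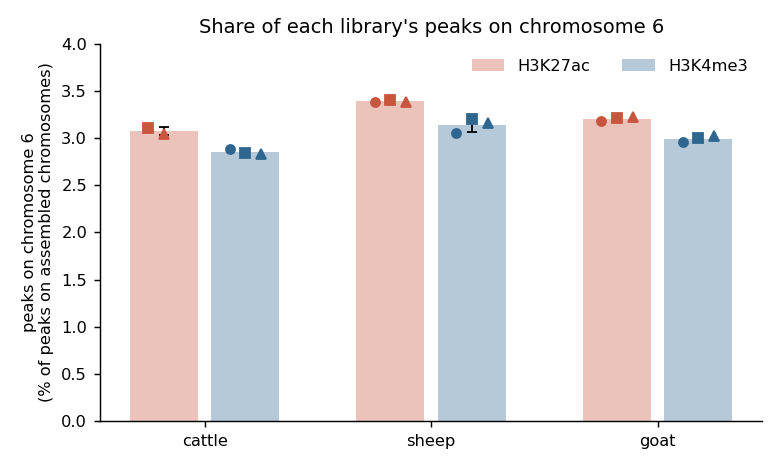
Share of each library's peaks on assembled chromosomes that lay on chromosome 6, in percent, by species and mark. Bars are means, error bars are SD (n = 2 for H3K27ac in cattle and n = 3 otherwise) and points are animals (circle A, square B, triangle C). H3K27ac lay above H3K4me3 in each species, and sheep were highest for both marks.

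The share also differed between species, with sheep highest for both marks. The F statistic over species was 86.6 for H3K27ac (exact permutation of species, p = 0.00357, adjusted p = 0.0102, n = 8) and 25.5 for H3K4me3 (exact permutation, p = 0.00357, adjusted p = 0.0102, n = 9). Both p-values are the smallest the designs allow. The size of F moved with single animals. For H3K27ac it was 138.8 without cattle B and 57.5 without sheep C, and for H3K4me3 69.2 without sheep A, 16.8 without cattle B or C and 16.9 without sheep C, each past the threshold (exact permutation, p = 0.0143, 0.00952, 0.00357, 0.00714, 0.00714 and 0.00357). For H3K27ac it was also 32.1 with −log10 q of at least 5 and 28.8 with every summit counted (exact permutation, p = 0.00357 for both), and for H3K4me3 15.8 with every summit counted (exact permutation, p = 0.00357). The length from the first to the last peak on this chromosome was 129.7 Mb for sheep, 117.6 Mb for goats and 115.7 Mb for cattle. The part of chromosome length in the difference between species was not tested. The place of goats depended on what counted as the whole, since X is among the named chromosomes of cattle and sheep only. As a share of autosomal peaks, a comparison added after seeing the data, H3K4me3 held 2.99% ± 0.03 for cattle, 3.24% ± 0.08 for sheep and 2.997% ± 0.032 for goats (SD, n = 3 each), so that cattle and goats overlapped (F = 23.7, exact permutation, p = 0.025, n = 9). For H3K27ac cattle were at 3.15% ± 0.04 (SD, n = 2), sheep at 3.47% ± 0.02 and goats at 3.21% ± 0.02 (SD, n = 3 each, F = 106.4, exact permutation, p = 0.00714, n = 8). As a share of all peaks, scaffolds included, H3K27ac was at 3.04% to 3.10% in cattle, 3.33% to 3.35% in sheep and 3.04% to 3.08% in goats, so that goats overlapped cattle. For H3K4me3 the goat libraries were at 2.16% to 2.35%, below cattle at 2.83% to 2.88%, and sheep were at 2.88% to 3.04%. The species still differed on this scale, with F = 101.1 for H3K27ac (exact permutation, p = 0.0357, n = 8) and F = 74.3 for H3K4me3 (exact permutation, p = 0.00714, n = 9). Among the 20000 strongest peaks of each library, the species test for H3K4me3 gave F = 4.21 (exact permutation, p = 0.0857, n = 9).

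Although long, chromosome 6 was thinly marked. H3K27ac had 10.6 and 11.5 peaks per Mb in cattle B and C, against 15.2 and 16.9 on the other assembled chromosomes of the same libraries. In sheep A, B and C the values were 10.2, 9.61 and 10.7 per Mb on chromosome 6 and 14.2, 13.2 and 14.7 elsewhere. In goats A, B and C they were 10.9, 13.3 and 12.0 against 16.7, 20.1 and 18.0. Each animal had fewer peaks per Mb here than elsewhere. The log2 ratio was -0.53 ± 0.06 (SD, n = 8) and was negative in 8 of 8 animals (exact two-sided sign-flip test, p = 0.00781, adjusted p = 0.0113). For H3K4me3, the mean was 6.74 ± 0.52 peaks per Mb on chromosome 6 and 10.5 ± 0.6 elsewhere (SD, n = 9). The log2 ratio of -0.64 ± 0.06 was negative in 9 of 9 animals (exact sign-flip test, p = 0.00391, adjusted p = 0.0102). These sign-flip p-values are the smallest that 8 and 9 animals allow, and the test covers animals, not chromosomes, since chromosome 6 is the same in each.

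How far this sets chromosome 6 apart is shown by its rank. By mean H3K27ac peaks per Mb it was 28th of 30 cattle chromosomes, 24th of 27 sheep chromosomes and 28th of 29 goat chromosomes, counted from the densest. For H3K4me3 it was 29th, 24th and 27th. The densest chromosome for H3K27ac was 19 in cattle with 31.6 peaks per Mb, 11 in sheep with 30.3 and 19 in goats with 35.4. Chromosome 6 was thus among the 4 most thinly marked of each species for both marks, but was not the lowest in any.

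How far the deficit differed between the 3 species depended on the X chromosome, which is among the other chromosomes of cattle and sheep and is not among the 29 named chromosomes used for goats. Whether X sequence lies on the unplaced scaffolds of goats was not tested. For H3K27ac the log2 ratio to the other chromosomes was -0.54 ± 0.02 for cattle (SD, n = 2). It was -0.47 ± 0.01 for sheep and -0.60 ± 0.01 for goats (SD, n = 3 each), with no overlap between species. The test of this difference gave F = 85.2 (exact permutation, p = 0.00357, adjusted p = 0.0131 over 11 such tests). For H3K4me3 cattle were at -0.65 ± 0.01, sheep at -0.58 ± 0.04 and goats at -0.70 ± 0.02 (SD, n = 3 each), with F = 17.8 (exact permutation, p = 0.00357, adjusted p = 0.0131). Against the other autosomes alone, a comparison added after seeing the data, the species lay closer. For H3K27ac cattle were at -0.59 ± 0.02 (SD, n = 2), sheep at -0.52 ± 0.01 and goats at -0.60 ± 0.01 (SD, n = 3 each), and cattle overlapped goats (F = 38.4, exact permutation, p = 0.0179, adjusted p = 0.0597 over 10 such tests). For H3K4me3 cattle were at -0.66 ± 0.01, sheep at -0.62 ± 0.04 and goats at -0.70 ± 0.02 (SD, n = 3 each, F = 8.16, exact permutation, p = 0.0107, adjusted p = 0.0535). Sheep had the smallest mean deficit for both marks in either comparison.

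The peaks that were present were slightly less enriched than elsewhere. The median fold enrichment over background, as given by the peak caller of the authors, was 3.85 ± 0.12 for H3K27ac on chromosome 6 and 3.89 ± 0.10 on the other chromosomes (SD, n = 8). The log2 ratio was -0.017 ± 0.015 and was negative in 6 of 8 animals (exact sign-flip test, p = 0.0312, adjusted p = 0.0339). The exceptions were goats A and B, at 0.0028 and 5.7e-05. With only the 20000 strongest peaks of each library, the H3K27ac ratio turned to 0.0094 (exact sign-flip test, p = 0.453, n = 8). With −log10 q of at least 5 it was -0.0034 and no longer past the threshold (exact sign-flip test, p = 0.656, negative in 4 of 8 animals). Without sheep B it was -0.015 (p = 0.0625 by the exact sign-flip test, n = 7), the same p as without either of the cattle, sheep A, sheep C or goat C. For H3K4me3 the medians were 6.74 ± 0.38 and 6.95 ± 0.38 (SD, n = 9). The log2 ratio of -0.046 ± 0.033 was negative in 7 of 9 animals (exact sign-flip test, p = 0.0156, adjusted p = 0.0185), and the exceptions were cattle B and C. Against the other autosomes alone it was -0.051 and negative in 9 of 9 animals (exact sign-flip test, p = 0.00391). That ratio turned to 0.0076 among the 20000 strongest peaks (exact sign-flip test, p = 0.137, n = 9).

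Recurrence between animals was also a little lower. A peak was counted as recurrent when 1 peak of another animal of the species covered at least 50% of its length. For H3K27ac, 75.8% ± 7.6 of the peaks on chromosome 6 were recurrent and 78.1% ± 6.9 elsewhere (SD, n = 8), a difference of -2.31 ± 1.73 percentage points that was negative in 7 of 8 animals (exact sign-flip test, p = 0.0156, adjusted p = 0.0185). Goat C was the exception at 0.012 points. Cattle differed by -4.52 points, sheep by -2.23 and goats by -0.92 (exact permutation of species, p = 0.00357, adjusted p = 0.0131, n = 8). Against the other autosomes alone these were -4.57, -2.25 and -0.92 points (exact permutation, p = 0.00357, adjusted p = 0.0357, n = 8). Cattle have 2 H3K27ac libraries, so leaving out 1 of them leaves no partner for the other. Without the cattle the difference was -1.58 points (exact sign-flip test, p = 0.0625, n = 6). For H3K4me3, 88.6% ± 4.8 were recurrent on chromosome 6 and 90.8% ± 4.0 elsewhere (SD, n = 9), and the difference of -2.20 ± 1.14 points was negative in 9 of 9 animals (exact sign-flip test, p = 0.00391, adjusted p = 0.0102). Among the 20000 strongest peaks it was -0.14 points (exact sign-flip test, p = 0.785, n = 9).

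Enhancer-type peaks made up more of the H3K27ac signal on this chromosome than on the rest. Of H3K27ac peaks on chromosome 6, 58.7% and 59.1% had no H3K4me3 peak of the same animal over them in cattle B and C, against 52.5% and 55.0% elsewhere. In sheep A, B and C the shares were 55.3%, 46.3% and 51.0%, against 46.9%, 40.1% and 44.9%. In goats A, B and C they were 55.6%, 56.3% and 54.6%, against 49.7%, 51.0% and 48.2%. The share was higher on chromosome 6 in each animal. The difference was 6.07 ± 1.22 percentage points (SD, n = 8), with 8 of 8 animals positive (exact sign-flip test, p = 0.00781, adjusted p = 0.0113). Cattle had 5.15 points, sheep 6.91 and goats 5.86, and a difference between species was not detected (exact permutation, p = 0.379, n = 8). By this share chromosome 6 was 4th of 30 cattle chromosomes, 3rd of 27 for sheep and 4th of 29 for goats, and chromosome 20 led in cattle and goats and 16 in sheep.

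Where peaks of 2 or more animals recurred, they were merged and kept as a consensus region. Cattle chromosome 6 carried 930 such regions for H3K27ac and 686 for H3K4me3. Sheep carried 1167 and 849, and goats 1281 and 731. Promoters, defined as H3K27ac regions with 50% or more of their length under an H3K4me3 region, numbered 463, 587 and 557 in cattle, sheep and goats. Enhancers, with no H3K4me3 overlap at all, numbered 450, 549 and 687, and the remaining 17, 31 and 37 were covered in part. Enhancers were thus fewer than promoters in cattle and sheep and more numerous in goats. They made up 48.4%, 47.0% and 53.6% of the H3K27ac regions of cattle, sheep and goats. On the other chromosomes the shares were lower, at 43.6%, 39.8% and 46.6%. Cattle consensus regions of H3K27ac had to recur in both of 2 animals, and those of sheep and goats in any 2 of 3. The median enhancer was 501.5 bp wide for cattle, 485 bp for sheep and 498 bp for goats, and the median promoter was 822, 768 and 834 bp. H3K4me3 regions without any H3K27ac made up 35.6%, 32.6% and 26.1% of the H3K4me3 regions of cattle, sheep and goats, against 33.0%, 30.8% and 22.4% on the other chromosomes.

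Along the chromosome, regions were far from even. Per 1 Mb bin the median was 5 H3K27ac and 4 H3K4me3 regions in cattle, 5 and 4 in sheep, and 7 and 5 in goats. At the same time, 15 of 118 bins in cattle held 20 or more H3K27ac regions each and together 43.9% of them. In sheep these were 20 of 130 bins with 48.0%, and in goats 27 of 118 bins with 61.8%. No consensus region of either mark lay in 14 bins of cattle, 14 of sheep and 8 of goats. A few stretches therefore held much of the marked chromatin of the chromosome.

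**Figure D2:**
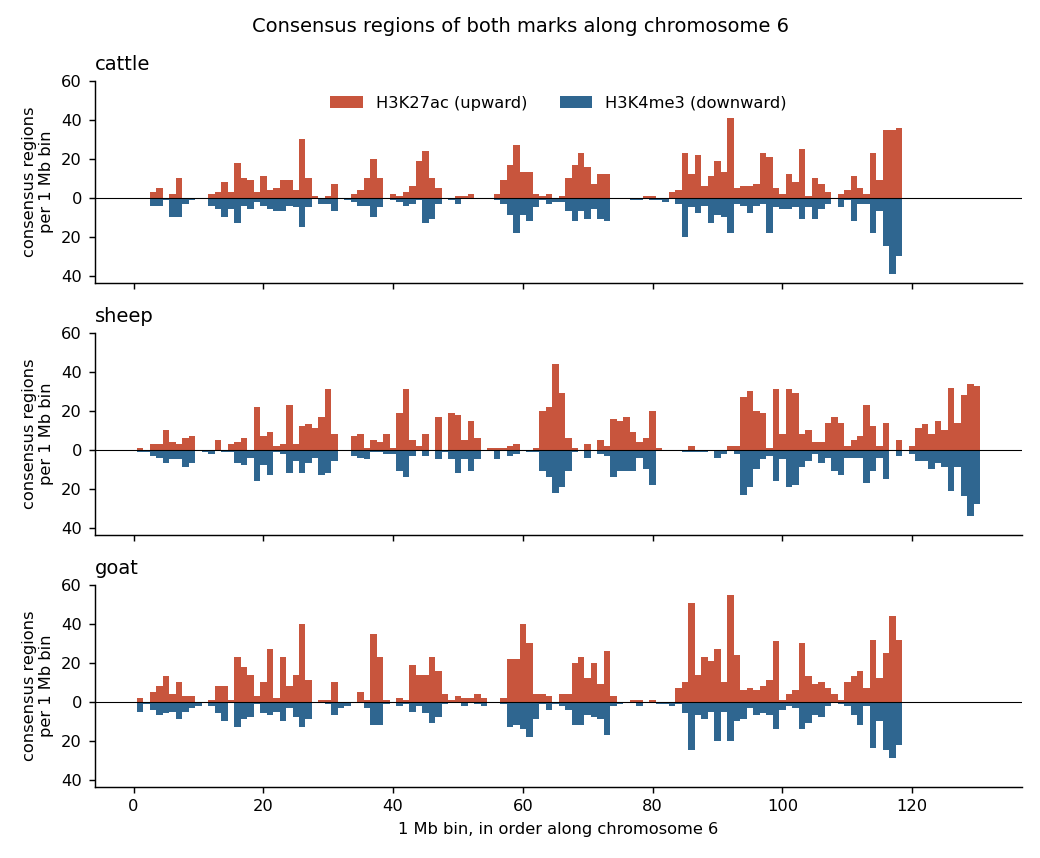
Consensus regions per 1 Mb bin along chromosome 6 in cattle, sheep and goats, with H3K27ac upward and H3K4me3 downward, both as counts. The tallest H3K27ac bins held 41 regions for cattle, 44 for sheep and 55 for goats, and empty stretches lay between crowded ones in all 3 species.

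This unevenness was stronger than on most other chromosomes. The densest 10% of bins held 35.01% ± 1.03 of the H3K27ac peaks of chromosome 6, against a mean of 28.9% ± 1.0 over the other chromosomes (SD, n = 8). The difference was 6.07 ± 1.17 points and positive in 8 of 8 animals (exact sign-flip test, p = 0.00781, adjusted p = 0.0113). Over the animals the values lay between 33.7% and 36.4%, and the means of the other chromosomes between 27.4% and 30.3%. In bins of 2 Mb the difference was 3.95 points (exact sign-flip test, p = 0.00781, n = 8). By this measure chromosome 6 was 2nd of 30 cattle chromosomes, 4th of 27 for sheep and 3rd of 29 for goats.

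Bins with no peak of either mark in an animal were more frequent as well. They made up 8.47% and 11.9% of the bins in cattle B and C, 13.8%, 9.23% and 10% in sheep A, B and C, and 5.93%, 6.78% and 7.63% in goats A, B and C. Elsewhere the range was 4.49% to 6.32%. The difference was 3.63 ± 2.16 points (SD, n = 8) and positive in 8 of 8 animals (exact sign-flip test, p = 0.00781, adjusted p = 0.0113), although in goat A it was only 0.59 points. The difference depended on the size of the bins and the peaks counted. It was 6.74 points in bins of 0.5 Mb, 1.68 in bins of 2 Mb and 6.79 among the 20000 strongest peaks of each library (exact sign-flip test, p = 0.00781 for each, n = 8). Chromosome 6 was 4th of 30 by the share of empty bins in cattle, 3rd of 27 in sheep and 8th of 29 in goats.

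**Figure D3:**
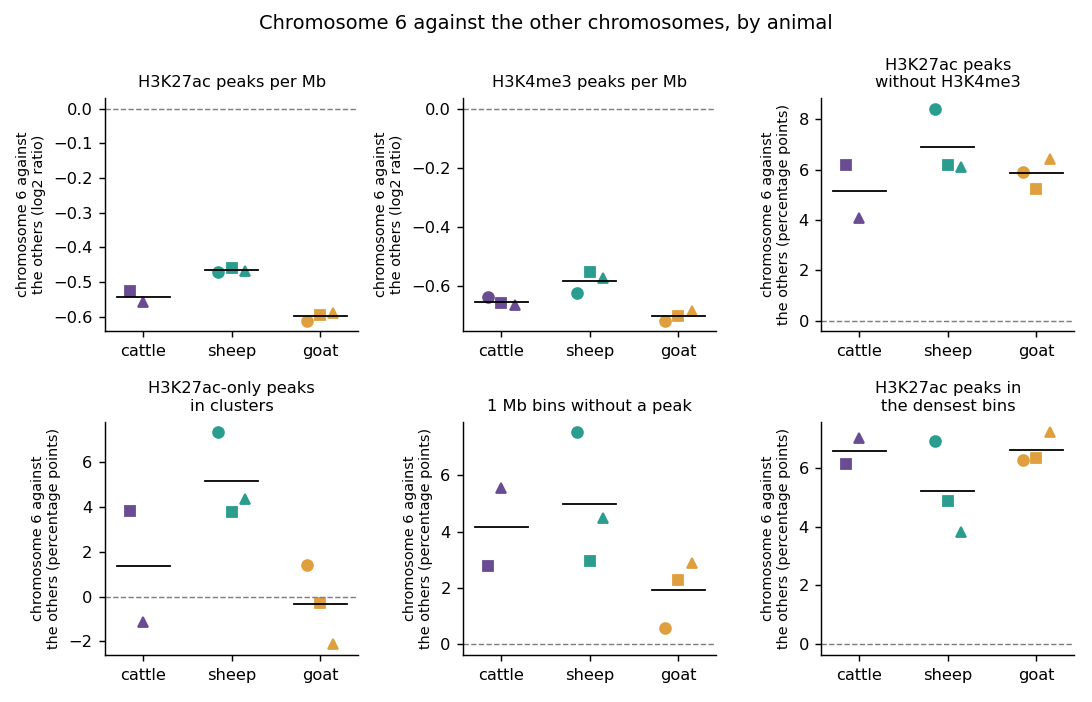
Difference between chromosome 6 and the other assembled chromosomes in each animal (circle A, square B, triangle C), as a log2 ratio for peaks per Mb and in percentage points for the shares, with a line at the mean of each species. All animals lay below 0 for both densities and above 0 for H3K27ac peaks without H3K4me3, for empty bins and for the densest bins, while the clustered share lay on both sides of 0.

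The crowded bins were named by their number of H3K27ac consensus regions. In cattle the first was the bin from 91 Mb, with 41 regions, of which 25 were enhancers, beside 18 H3K4me3 regions. It held 48 and 47 H3K27ac peaks in animals B and C, and 20, 15 and 18 H3K4me3 peaks in A, B and C. Goats had their most crowded bin at the same place, from 91 Mb, with 55 regions and 37 enhancers, and with 53, 62 and 60 H3K27ac peaks in A, B and C. H3K4me3 counted 20, 26 and 24 peaks there. In sheep the first was the bin from 64 Mb, with 44 regions and 28 enhancers, where A, B and C had 48, 47 and 55 H3K27ac and 19, 25 and 24 H3K4me3 peaks. In all 3 species the most crowded bin held more H3K27ac than H3K4me3 regions, in part because bins were ranked by H3K27ac. H3K27ac also led over the whole chromosome, with 930 regions against 686 in cattle, 1167 against 849 in sheep and 1281 against 731 in goats.

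Other crowded bins lay at the far end. In cattle, the bins from 117, 115 and 116 Mb held 36, 35 and 35 H3K27ac regions. Sheep had 34, 33 and 32 in the bins from 128, 129 and 125 Mb, and goats had 44 in the bin from 116 Mb. H3K4me3 had 30, 25 and 39 regions in the 3 cattle bins, 34, 28 and 21 in the sheep bins and 29 in the goat bin. It thus equalled or outnumbered H3K27ac in the cattle bin from 116 Mb and the sheep bin from 128 Mb, and lay 15 regions below it in the goat bin. The last 5 Mb before the last peak made up 4.32% of the length for cattle, 3.85% for sheep and 4.25% for goats. They held 13.7% to 14.1% of H3K27ac peaks in cattle, 11.7% to 13.3% for sheep and 10.7% to 12.0% for goats. For H3K4me3 the shares were 16.7% to 17.4%, 13.7% to 15.4% and 14.1% to 14.9%. In every animal with both marks, H3K4me3 had the larger share of its peaks at this end.

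The remaining named bins were from 25 Mb in cattle, with 30 H3K27ac and 15 H3K4me3 regions, and from 29 Mb in sheep, with 31 and 12. The fifth place of sheep was a tie of 4 bins with 31 H3K27ac regions, and the bin from 29 Mb was taken by position before those from 41, 98 and 100 Mb, which had 14, 16 and 19 H3K4me3 regions. In goats they were from 85 Mb with 51 and 25, from 25 Mb with 40 and 13, and from 59 Mb with 40 and 14. The sheep bin from 29 Mb had 39, 31 and 26 H3K27ac peaks in A, B and C, and the goat bin from 85 Mb had 45, 64 and 54.

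Over all bins the peak counts of the 2 marks of an animal ran largely alike, with Spearman's rho of 0.847 to 0.900. Single bins still differed in the balance of the marks. This was looked at by the surplus of H3K27ac over H3K4me3 regions in a bin, a measure chosen after the values were seen. The largest surplus was 23 regions in cattle and 35 in goats, both in the bin from 91 Mb, and 22 in sheep, in the bin from 64 Mb. The cattle bin from 43 Mb stood out for its near lack of H3K4me3, with 19 H3K27ac regions and 1 of H3K4me3. Its H3K27ac peaks numbered 22 and 27 in B and C, and its H3K4me3 peaks 2, 1 and 3 in A, B and C. The bin from 96 Mb in cattle was alike, with 23 and 3 regions. H3K4me3 regions outnumbered those of H3K27ac in 37 bins in cattle, 37 in sheep and 22 in goats.

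Enhancers that followed each other with gaps of at most 12500 bp, the distance in common use to join super-enhancers, with no H3K4me3 region in between, were joined into clusters of 3 or more. Chromosome 6 had 24 such clusters with 84 of the 450 enhancers in cattle, 36 with 128 of 549 in sheep and 47 with 162 of 687 in goats. As a share this was 18.7%, 23.3% and 23.6%, against 18.2%, 16.6% and 25.01% on the other chromosomes. Sheep stood above the rest of their chromosomes, while cattle and goats were close to them. Most clusters were small, and 15, 24 and 34 of them had just 3 regions. The median span was 10.04 kb in cattle, 10.5 kb in sheep and 9.56 kb in goats.

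Per animal, 25.7% and 30.7% of H3K27ac-only peaks on chromosome 6 were clustered in cattle B and C. In sheep A, B and C the shares were 26.4%, 19.4% and 23.6%, and in goats 24.4%, 28.1% and 22.2%. The difference from the other chromosomes was 2.15 ± 3.22 points (SD, n = 8), with 5 of 8 animals positive, and did not pass the threshold (exact sign-flip test, p = 0.0938, adjusted p = 0.0938). Its size rested on the peaks and rules used and on 1 animal. It was 1.41 points without sheep A, 0.48 among the 20000 strongest peaks, 0.84 with −log10 q of at least 5, 0.79 with gaps of at most 5 kb, 1.17 with 2 or more peaks per cluster and 1.27 with H3K27ac-only peaks more than 1 kb from H3K4me3, none of them past the threshold. In sheep it was 7.33, 3.79 and 4.37 points, whereas cattle C, goat B and goat C were below 0. The test of a difference between species gave p = 0.0893 (exact permutation, n = 8).

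The largest clusters stood high among those of the whole genome. In cattle the first spanned 37.1 kb at chr6:43442290-43479417 and had 7 regions, with 3 clusters elsewhere holding more. Animals B and C had 7 and 8 H3K27ac peaks in it, with a highest fold enrichment of 2.98 and 3.89, and no animal had an H3K4me3 peak. The nearest H3K4me3 region lay 1151 kb away on the low side and 5.44 kb away on the high side. This cluster thus sat at the edge of a long stretch without H3K4me3.

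A cluster of the same setting was found in each of the other species. In sheep it spanned 36.6 kb at chr6:48091451-48128073 with 6 regions, and its nearest H3K4me3 regions lay 984 kb and 6.25 kb away. Animals A, B and C had 6, 5 and 6 H3K27ac peaks there, and B alone had an H3K4me3 peak. In goats it spanned 19.8 kb at chr6:43877656-43897407 with 6 regions, between H3K4me3 regions at 1192 kb and 6.51 kb. Goats A, B and C had 5, 6 and 6 H3K27ac peaks and no H3K4me3 peak. In all 3 species, then, a run of enhancers lay about 6 kb from the first H3K4me3 region on one side and about 1 Mb or more from the next on the other. Whether the sequences correspond was not tested, because no genome was aligned.

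The bins that held these clusters were counted in each animal. The sheep bin from 48 Mb had 19 H3K27ac and 5 H3K4me3 regions, with 19, 15 and 25 H3K27ac peaks in A, B and C and 4, 6 and 5 of H3K4me3. The goat bin from 43 Mb had 14 and 2 regions, with 14, 14 and 13 H3K27ac peaks and 1, 3 and 2 of H3K4me3. Together with the cattle bin from 43 Mb, they had fewer H3K4me3 than H3K27ac peaks in every animal with both marks. The bins were taken for clusters defined by H3K27ac without H3K4me3, so this follows in part from that choice.

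The first cluster of sheep was at chr6:64148358-64183170, in the most crowded bin, and had 7 regions over 34.8 kb. Sheep A, B and C had 5, 6 and 8 H3K27ac peaks in it and 1 H3K4me3 peak each. Those 3 H3K4me3 peaks, at chr6:64169897-64170324, chr6:64170809-64171058 and chr6:64150201-64150452, did not overlap and so formed no consensus region. In cattle, the second cluster was at chr6:58710785-58731135, with 4 regions, 4 and 5 H3K27ac peaks in B and C, and 1 H3K4me3 peak in C only. Goats had their first cluster at chr6:88965269-88999250, with 8 regions over 34.0 kb that covered 5087 bp. Goats A, B and C had 9, 6 and 8 H3K27ac peaks there, with a highest fold enrichment of 2.89, 3.07 and 3.16, and C had 1 H3K4me3 peak. Only 2 clusters of the goat genome held more regions.

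Among the named sheep clusters, the highest fold in each animal was at chr6:29194198-29210896, with 4.43, 5.82 and 6.39 in A, B and C over 4 regions. The sheep cluster at chr6:28893302-28916429 lay close before it and had 6 regions that covered 4624 bp. Goats had 5 regions at chr6:20035136-20066304, with a highest fold of 4.202, 5.37 and 5.36, and 5 at chr6:98806948-98828072, with 4.53, 4.77 and 4.04. In cattle, the 4 regions at chr6:86490775-86507283 reached 3.44 and 4.87 in B and C, and the 4 at chr6:116188816-116201193 reached 4.28 and 4.56. No H3K4me3 peak of any animal lay in the cattle clusters at chr6:96513972-96530748 and at chr6:116188816-116201193. The sheep cluster of 5 regions at chr6:106613785-106623536 was the most compact named, at 9.75 kb, and had 4 H3K27ac peaks in each animal. The goat cluster at chr6:102667400-102689315 had 4 regions, with 2, 4 and 4 H3K27ac peaks in A, B and C, so that it was the only named one where an animal had fewer than 3.

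Stretches without either mark lay between the crowded bins. There were 16 of 1 Mb or more in cattle, 20 for sheep and 13 for goats, and they added up to 30.5, 35.1 and 22.9 Mb. This was 26.3%, 27.1% and 19.5% of the chromosome, against 18.5%, 18.5% and 15.9% of the others, and ranked it 4th of 30, 5th of 27 and 7th of 29. The longest in cattle ran over 4.19 Mb at chr6:72523784-76714797, where the 5 libraries together had 2 peaks. In sheep it ran over 4.11 Mb at chr6:80516502-84622345, with no peak in any of the 6 libraries. In goats it was shorter, 2.65 Mb at chr6:53611273-56262138, with 5 peaks in all. As the longest stretch of a chromosome these ranked 3rd of 30 in cattle, 4th of 27 in sheep and 15th of 29 in goats, and the longest on any other chromosome was 5.88, 5.08 and 4.80 Mb. Whether assembly gaps or repeats fill these stretches was not tested, since no genome sequence was used.

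Second in cattle was a stretch of 3.98 Mb at chr6:51663723-55640861, with 1 peak. It was followed by 2.76 Mb at chr6:8273979-11037111 with 1 peak, 2.57 Mb at chr6:46271908-48844963 with 2, and 2.16 Mb at chr6:106541183-108696603 with 8. In sheep the next were 2.76 Mb at chr6:30681846-33443521 with 1 peak, 2.40 Mb at chr6:58424362-60827178 with 6, 2.11 Mb at chr6:117703038-119814655 with 4, and 1.93 Mb at chr6:67317615-69243227 with none. In goats they were 2.14 Mb at chr6:9243223-11380394 with none, 2.01 Mb at chr6:38069497-40078803 with 4, 1.98 Mb at chr6:77256963-79240978 with 2, and 1.90 Mb at chr6:107075025-108973614 with 5. No single library had more than 5 peaks in any of these 15 stretches.

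The order of crowded and empty bins was then compared between species. Within a species, profiles in 1 Mb bins were close to each other, with Spearman's rho between animals of 0.985 in cattle, 0.953 to 0.979 in sheep and 0.972 to 0.979 in goats for H3K27ac. For H3K4me3 it was 0.952 to 0.968, 0.940 to 0.970 and 0.964 to 0.978. Between the marks of an animal it was 0.847 to 0.900 over all 3 species. These values are across 118 bins in cattle and goats and 130 in sheep, and bins of a chromosome are not independent replicates.

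Between cattle and goats, rho across 118 bins was 0.804 for H3K27ac and 0.776 for H3K4me3 with the bins set side by side as numbered. No shift of up to 20 bins gave a higher value. With the goat chromosome reversed, rho was -0.062 and 0.149, and at most 0.306 and 0.312 after shifting. Dense and empty stretches thus ran in the same direction in these assemblies.

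Sheep were out of step as numbered. The rho between cattle and sheep was -0.145 for H3K27ac and -0.107 for H3K4me3, and between goats and sheep -0.115 and -0.189. A shift of the sheep profile by 7 bins raised it to 0.469 for H3K27ac against cattle, and one by 4 bins to 0.434 against goats. For H3K4me3 the values were 0.449 at 5 bins and 0.443 at 4. The reversed sheep profile reached at most 0.254 in any of the 4 comparisons. No single shift brought sheep to the level seen between cattle and goats.

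**Figure D4:**
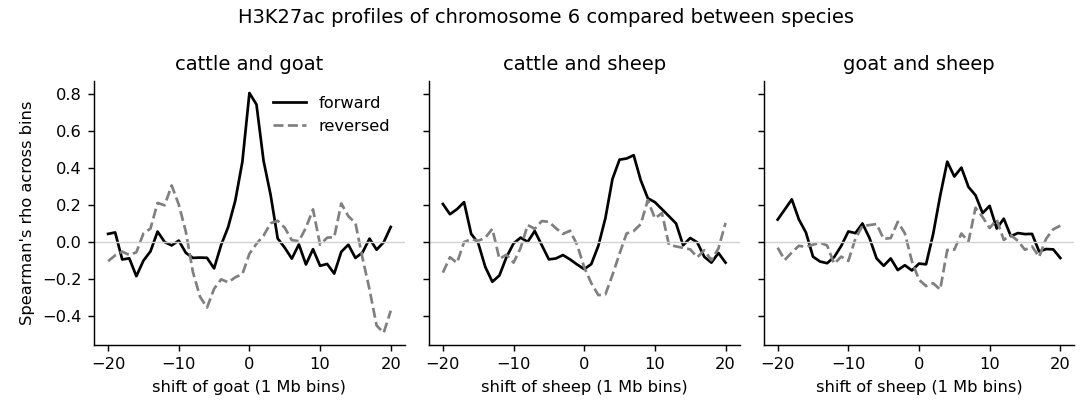
Spearman's rho across 1 Mb bins between the mean H3K27ac profiles of chromosome 6 of a pair of species, against the shift of the second species in bins, forward (solid) and reversed (dashed). Cattle and goats peak at no shift with rho of 0.804, while the comparisons with sheep peak at 7 and 4 bins with 0.469 and 0.434.

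The shift that lined up sheep grew along the chromosome. In windows of 20 bins, chosen after the whole profiles had been seen, the best shift from goats to sheep was 3 bins at the start and rose to 4, then to 6 in the middle and to 10 in the last window for H3K27ac, with rho of 0.564 to 0.810. For H3K4me3 it also went from 3 to 10, with rho of 0.512 to 0.901. From cattle to sheep it went from 1 to 11 bins for H3K4me3 and from 1 to 10 for H3K27ac, apart from 1 window of H3K27ac (bins 31 to 50), where the best shift was -16. From cattle to goats it was 0 or 1 in all 10 windows of both marks. The peaks of sheep spanned 129.7 Mb and those of goats 117.6 Mb, so the stretched order and the greater length go together. Bin counts give no sequence alignment.

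**Figure D5:**
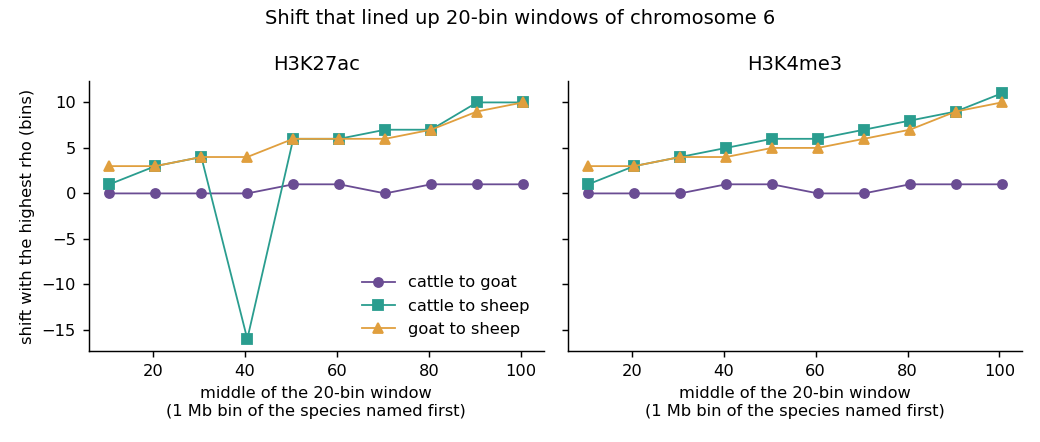
Shift in 1 Mb bins that gave the highest Spearman's rho for each 20-bin window of chromosome 6, against the middle of the window, for H3K27ac (left) and H3K4me3 (right). Cattle and goats stayed at 0 or 1, and the shift to sheep rose to 10 or 11, with 1 H3K27ac window of cattle at -16.

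With these local shifts, some of the named stretches, clusters and bins could be matched between species. A stretch, cluster or bin was taken as matched when its middle lay within 2 Mb of one of the same kind in the other species, after the H3K4me3 shift of its window. Between cattle and goats, 3 of 5 empty stretches, 3 of 5 clusters and 5 of 5 crowded bins of cattle were matched. Between cattle and sheep the numbers were 3, 3 and 4 of 5, and between goats and sheep 2, 1 and 3 of 5. Matches could share a partner, so that the 5 cattle bins met 3 goat bins, and the 4 cattle bins met 3 sheep bins. Since the shifts come from the same profiles, these counts are a description. How many matches this rule gives without a common order was not tested.

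Read along the chromosome, the first landmark matched in all 3 species was a crowded bin from 25 Mb in cattle and goats and from 29 Mb in sheep. The clusters near 43.5 Mb in cattle, 43.9 Mb in goats and 48.1 Mb in sheep came next. They were followed by an empty stretch with its middle at 53.7, 54.9 and 59.6 Mb, and near the end by another at 107.6, 108.0 and 118.8 Mb. The crowded end closed the order in all 3. The first stretch of cattle, with its middle at 74.6 Mb, had its sheep counterpart at 82.6 Mb, but no named goat stretch within 2 Mb. The most crowded bin of cattle and goats, from 91 Mb, had no match among the 5 named bins of sheep, although the bins from 98 and 100 Mb, which tied for the fifth place and lie within 2 Mb after the shift, were not among those compared. Conversely, the first bin of sheep, from 64 Mb, matched the fifth of goats, from 59 Mb.

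Single strong regions, taken by their rank in −log10 q, closed the description. They were not those of highest fold. The highest fold of any peak on the chromosome was 12.57 to 20.58 per library for H3K27ac and 20.13 to 29.45 for H3K4me3. The H3K27ac region with the best poorest rank was at chr6:116623400-116624169 in cattle (770 bp), with a fold enrichment of 7.01 and 8.34 in B and C, at chr6:25730490-25732008 in sheep (1519 bp), with 7.30, 7.96 and 7.69 in A, B and C, and at chr6:22292259-22293839 in goats (1581 bp), with 6.48, 8.02 and 7.56. For H3K4me3 it was at chr6:117797850-117798839 in cattle (990 bp), with 12.7, 11.8 and 12.4. In sheep it was at chr6:129637116-129638821 (1706 bp), with 9.92, 9.74 and 9.83, and in goats at chr6:105787959-105789341 (1383 bp), with 13.5, 12.1 and 11.8. Each of these 6 regions overlapped at least 1 region of the other mark, so they carried both. The H3K4me3 regions of cattle and sheep lay close to the last peak of the chromosome.

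Within whole libraries these regions were far from first. By −log10 q, the sheep H3K27ac region ranked 90th, 128th and 96th in A, B and C, and the goat one 273rd, 50th and 144th. The cattle region ranked 253rd and 301st in B and C. For H3K4me3 the ranks were 147th, 125th and 88th in cattle, 433rd, 438th and 225th in sheep, and 79th, 264th and 332nd in goats.

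The widest regions were of another kind. For H3K27ac they were 2571 bp in cattle (chr6:59090064-59092634), 2732 bp in sheep (chr6:95345942-95348673) and 2663 bp in goats (chr6:22727329-22729991). For H3K4me3 they were 2768 bp (chr6:15228531-15231298), 2903 bp (chr6:98398377-98401279) and 2862 bp (chr6:85459463-85462324). All of them overlapped regions of the other mark. Their strongest peak by −log10 q had a fold enrichment of 3.61 to 6.17 for H3K27ac and 4.12 to 6.73 for H3K4me3. In each library this was below the fold of the region named above by rank for that mark. In goats the widest H3K27ac region was 1 peak of 2357 bp at its strongest in A, but 535 and 574 bp in B and C.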

How the data were processed

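ChIP-seq of H3K27ac and H3K4me3 in liver was used as 17 peak lists. According to the study's methods and the submitters' processing notes, the authors trimmed reads with Trim Galore 0.4.0, aligned them with BWA 0.7.17, removed duplicates with Picard 2.25.0, subsampled the reads of each library, to the same number for paired-end libraries, and found narrow peaks in each with MACS2 2.1.1 at q of 0.01. Whether inputs served as background is not stated there. The lists were taken as those of the subsampled reads, which is not stated either. Each H3K27ac list, with at most 50842 peaks, lies below the range of H3K27ac regions that the study reports for liver. The reason was not tested. The labels name ARS-UCD1.2 for every sample, and the builds given here for sheep and goats follow the methods. The deposited lists give each peak a fold enrichment (a ratio to background) and −log10 of its p-value and q-value from the authors' peak caller. The lowest −log10 q of a list was 2.00 to 2.01. Such values depend on depth and background, so they were compared only within a library.

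Summits listed for the same interval were taken as 1 peak. Bins were 1 Mb, and lengths ran from the first to the last peak of any library of the species. The other chromosomes include X in cattle and sheep, and autosomes only in goats. Depth was not measured here, since the lists give no reads, and precision rests on 2 or 3 animals per group. Tests were exact, and those of a difference were two-sided. They numbered 13, and 0.05 was the threshold for the p before adjustment. Groups follow the sample titles, and a letter within a species marks the same liver. Over the 8 animals with both marks, the deviations of the chromosome 6 share from the group mean had a correlation of 0.537. Alternatives were a −log10 q of at least 5, the 20000 strongest peaks, other overlap and cluster rules, other bins, autosomes alone, counting summits, the replicate block, and leaving out each animal. The 11 tests of a difference between species in the chromosome 6 effects are not among the 13. They, and the comparisons between species on autosomes alone, were added after seeing the data. Regions were named as, per species and mark, the consensus region with the best poorest rank and the widest one, and per species the 5 most crowded bins, the 5 longest stretches without either mark and the 5 largest clusters. The chromosome, members and lists were chosen with earlier results of these data known. Coordinates are 1-based.

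Calculations used Python 3.11.15, numpy 2.4.6, pandas 2.3.3, scipy 1.17.1 and matplotlib 3.10.9. Overlaps were checked against bedtools 2.31.1 on simulated lists, and 0 of 10 comparisons differed. Gene positions, sequences and expression were not analysed here, because no genome or annotation of these builds was used.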

Additional observations from a re-analysis of the deposited data

Results flagged for a closer look

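In 4 of 11 tests, which were added after seeing the data, the difference between chromosome 6 and the other chromosomes was itself unequal between species. The deficit of H3K27ac peaks per Mb was largest in goats and smallest in sheep, with log2 ratios of -0.60 and -0.47 and -0.54 in cattle (exact permutation, p = 0.00357). That of H3K4me3 peaks per Mb had the same order, with -0.70, -0.58 and -0.65 in goats, sheep and cattle (exact permutation, p = 0.00357). The log2 ratio of the median H3K4me3 fold enrichment was -0.007 for cattle, -0.074 for sheep and -0.055 for goats (exact permutation, p = 0.00714). The difference in recurrent H3K27ac peaks was -4.52 points for cattle, -2.23 for sheep and -0.92 for goats (exact permutation, p = 0.00357), and cattle have 1 H3K27ac library fewer. After adjustment over the 11 tests, all 4 stayed under 0.05. The other chromosomes include X in cattle and sheep only. Against the other autosomes alone, added after seeing the data, the same 4 tests gave p = 0.0179, 0.0107, 0.0786 and 0.00357 in this order (exact permutation), or 0.0597, 0.0535, 0.186 and 0.0357 adjusted over 10 tests, so that only the recurrence of H3K27ac peaks stayed under 0.05 after adjustment. The log2 ratio of H3K4me3 fold enrichment was then -0.029 for cattle, -0.071 for sheep and -0.055 for goats. Cattle and goats then overlapped in H3K27ac peaks per Mb, at -0.59 and -0.60.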

How the results depend on the processing

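Of 165 alternatives to the 13 tests, 152 kept both the direction and the side of the threshold, 11 fell short of it and 2 turned the direction. With the 20000 strongest peaks per library, the F statistic of the H3K4me3 share over species was 4.21, the log2 ratio of median fold enrichment was 0.0094 for H3K27ac and 0.0076 for H3K4me3, and the recurrence difference of H3K4me3 was -0.14 points. With −log10 q of at least 5, the H3K27ac fold enrichment ratio was -0.0034. Leaving out 1 animal, that ratio ranged from -0.020 to -0.015. The recurrence difference of H3K27ac ranged from -2.85 to -2.67 points without 1 of the sheep or goats. It was -1.58 points when 1 of the cattle was left out, which removes both cattle from this measure. The causes of these changes were not tested. With the replicate block, which paired the marks of an animal, the share on chromosome 6 differed between marks by 0.11 on the log2 scale (exact sign-flip test, p = 0.00781, n = 8), and stayed past the threshold. The tests between species that changed against autosomes alone are given above. Read depth was not measured here, and 2 or 3 animals per group limit what can be seen.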
